A study of Rattus norvegicus with 12 samples.

Results

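Collagens, laminins and 11 other genes of the extracellular matrix were followed in the renal cortex of rats given tert-butyl alcohol (TBA), a solvent formed in the body from the fuel ethers MTBE and ETBE. Members were every gene whose symbol begins with Col or Lam followed by a chain number, plus Fn1, Fbn1, Postn, Tnc, Lox, Dcn, Lum, Bgn, Sparc, Nid1 and Hspg2, provided that 1 or more groups had a probe well above background on each of their 3 arrays. Of 67 such symbols in the RefSeq gene table, 33 were matched to an array probe and 30 of these passed, out of 29603 features tested in all. No probe was matched to the other 34, which include Col4a2, Col4a3, Col4a5, Col6a1, Lamb1, Lox, Nid1 and Hspg2, and they were not analysed here. Of the 30, 27 were well above background on all 12 arrays.

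Male Sprague-Dawley rats of the Crl:CD(SD) stock, 5 weeks old at purchase, were dosed for 4 weeks with water (the vehicle) or with 1000 mg/kg/day of TBA. Bleeding followed 24 h after the final dose and was done under a mixture of CO2 and O2 (4:1) or under isoflurane, so that the 4 groups were vehicle under CO2-O2, TBA under CO2-O2, vehicle under isoflurane and TBA under isoflurane, with 3 rats in each. The labels call the rats of a group biological replicates. Total RNA of each rat was hybridised to its own single-colour Agilent array. Every value below is a log2 signal minus the 75th percentile of its array, so that a value of 0 lies at that percentile, and every difference is a log2 difference between group means with its standard error (SE) from limma. A gene was called at a Benjamini-Hochberg adjusted p under 0.05 over all 29603 features. Probes bind with different strength, so levels are compared between rats and not between genes.

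The matrix of the kidney has an interstitial and a basement membrane compartment. Fibrillar collagens, decorin and fibronectin are made mainly by fibroblasts and mesangial cells, and their transcripts are standard readouts of renal fibrosis. Basement membranes under the tubules, around the vessels and in the glomerular filter are sheets of type IV collagen and laminin, whose chains differ between sites and are made by the epithelial and endothelial cells that rest on them. In cortex tissue, fewer cells of a type and less RNA per cell cannot be told apart.

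There were 3 slides and 2 scan days. Slide 1, scanned on day 1, held the 3 vehicle rats under CO2-O2 and TBA rat 3 under CO2-O2. Slide 2 held TBA rats 1 and 2 under CO2-O2 and the 3 vehicle rats under isoflurane, and slide 3 held the 3 TBA rats under isoflurane, both scanned on day 2. The share of the 61657 non-control probes that were well above background was 61.6% to 71.0% per array, and pairs of arrays within a group correlated at 0.989 to 0.994 across features. Markers of the proximal tubule, the most abundant cells of the cortex, were well above background on all 12 arrays for 8 of 8 genes.

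Vehicle rat 2 under isoflurane stood apart from the other rats. It had the lowest signal of all 12 rats for 10 of the 30 genes and the lowest of its group for 19, with a median of -0.24 against its group mates. Fibronectin (Fn1, 0.84), biglycan (Bgn, 4.97), decorin (Dcn, 2.28) and Col1a2 (3.38) were among the genes lowest in this rat. Its 11 fibroblast and stroma markers had a mean of -1.14, against -0.79 and -1.02 in the other rats of its group, and 62.3% of its probes were well above background, against 68.1% and 71.0%. Neither trait was particular to it. The marker mean was -1.16 in TBA isoflurane rat 1, and the share of probes was 61.6% in TBA isoflurane rat 3. The part of stroma or of signal quality in the low values of vehicle isoflurane rat 2 was not tested. Without it, no matrix gene was called in any comparison that uses it. With it the only call there was Col4a4 in the averaged anesthetic difference. That difference was -0.41 with this rat and -0.42 without it, and most fits leaving out another rat lost the call too. Without the rat, the anesthetic difference in vehicle rats lay closer to 0 for 20 of the 30 genes and changed sign for 3. The TBA effect under isoflurane lay closer to 0 for 18 and changed sign for 7. The rat was singled out by these same values, so part of these shifts follows from the choice. Below, values without this rat stand beside several results that it moved.

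**Figure D1:**
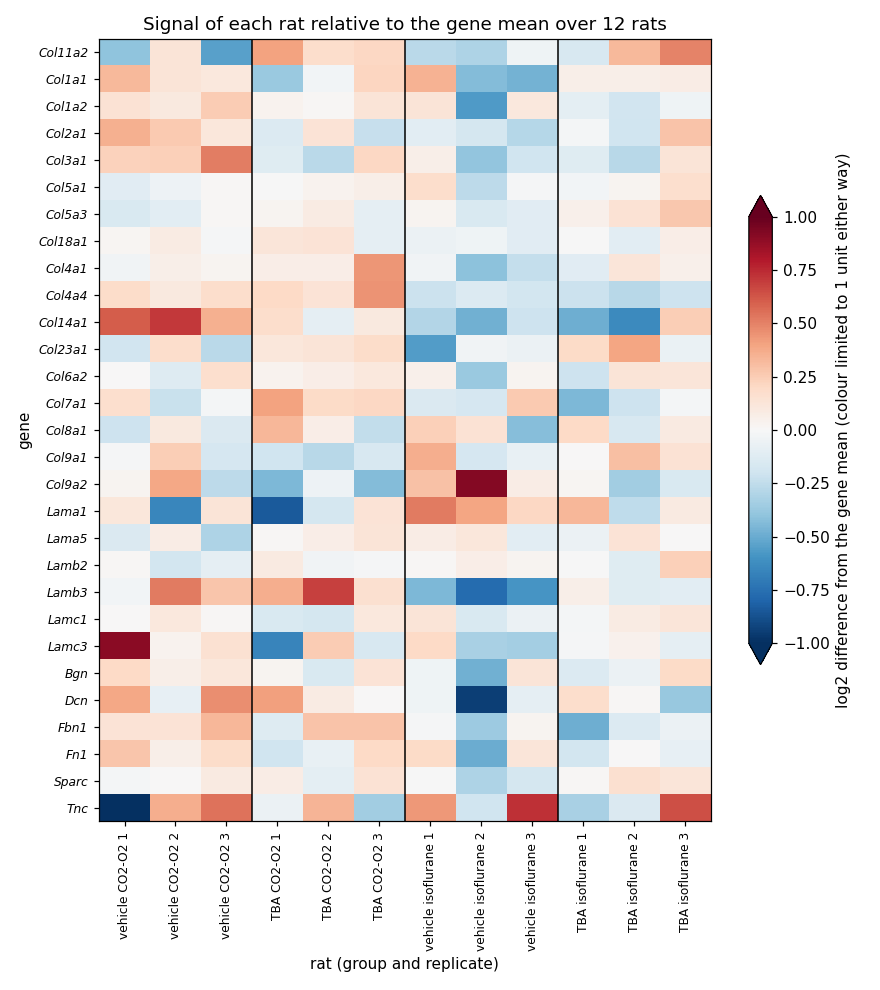
Signal of each of the 12 rats (columns, grouped by treatment and anesthetic) for 29 of the 30 matrix genes (rows), as the log2 difference from the gene's mean over all rats, with red above and blue below. The column of vehicle isoflurane rat 2 is blue for most genes, with the lowest value of 12 rats for 10 genes, and the Col4a4 row is red in the 6 CO2-O2 rats and blue in the 6 isoflurane rats.

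Whether TBA changed matrix transcripts was asked first. Under either anesthetic and in the mean of both, no matrix gene was called by limma: 0 of 30 under CO2-O2, where 0.149% of all features were called, 0 of 30 under isoflurane (0.395%) and 0 of 30 in the averaged effect (1.88%). At an unadjusted p under 0.05 the counts were 4, 5 and 6 of 30, that is 13.3%, 16.7% and 20.0%, against 14.3%, 17.8% and 19% of all features. The median difference over the 30 genes was 0.023 under CO2-O2, 0.090 under isoflurane and 0.039 in the averaged effect, against 0.015, 0.017 and 0.014 over all features. Without vehicle isoflurane rat 2 the median under isoflurane was 0.012 and that of the averaged effect -0.02. Groups did not overlap for 5 genes under CO2-O2 (20.9% of all features) and for 4 under isoflurane (24%). Under isoflurane all vehicle arrays were on slide 2 and all TBA arrays on slide 3, so TBA and slide cannot be told apart there. The averaged effect holds this difference too. Under CO2-O2 only TBA rat 3 shared the slide of the vehicle rats.

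Fibrillar collagens were measured with 7 chains, Col2a1 and Col11a2 among them, and none was called. Under CO2-O2, 3 were higher and 4 lower in the TBA rats, with a median of -0.10, and under isoflurane 7 of 7 were higher, with a median of 0.21. The averaged effect was higher for 4 and lower for 3. Without vehicle isoflurane rat 2, 4 of 7 were higher under isoflurane, with a median of 0.13. In the test of the difference between both effects none of the 7 was called. Col1a1, a chain of type I collagen, was at 1.99, 1.80 and 1.78 in the vehicle rats under CO2-O2 and at 1.29, 1.64 and 1.88 in the TBA rats. Under isoflurane it was at 2.01, 1.23 and 1.20 in the vehicle rats and at 1.73, 1.72 and 1.74 in the TBA rats. The groups overlapped under both anesthetics, and the spread was widest among the vehicle rats under isoflurane. The averaged TBA effect on Col1a1 was 0.0019 ± 0.149 (SE; adjusted p = 0.996), a 1.00-fold level with a 95% interval of 0.795-fold to 1.26-fold.

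Its partner chain Col1a2 was at 4.08, 4.04 and 4.19 in the vehicle rats and 3.98, 3.96 and 4.08 in the TBA rats with CO2-O2, and at 4.07, 3.38 and 4.05 against 3.85, 3.75 and 3.90 under isoflurane. Again the groups overlapped, and the averaged effect was -0.05 ± 0.11 (adjusted p = 0.841), or 0.965-fold with an interval of 0.811-fold to 1.15-fold. Rat 2 was the low vehicle rat under isoflurane, and without it the averaged effect was -0.17 ± 0.05 (adjusted p = 0.163).

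Col3a1, which forms type III collagen of the interstitium and vessel walls, was at 2.45, 2.46 and 2.73 in the vehicle rats under CO2-O2 and at 2.10, 1.95 and 2.42 in the TBA rats. There all 3 TBA rats lay below all 3 vehicle rats, with TBA rat 3 close to the lowest of them. Under isoflurane the order was not kept, with 2.28, 1.83 and 2.02 in the vehicle rats and 2.10, 1.94 and 2.35 in the TBA rats. The difference was -0.39 ± 0.16 (adjusted p = 0.317) under CO2-O2, 0.08 ± 0.16 under isoflurane (-0.03 without vehicle rat 2) and -0.15 ± 0.11 averaged (adjusted p = 0.501). Within slide 1, TBA rat 3 was 0.12 below the mean of the vehicle rats (difference -0.12), from 1 TBA array.

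A minor fibrillar chain had the highest TBA difference among the 30 genes. Col11a2, a chain of type XI collagen that sits inside fibrils, was at -1.24, -0.70 and -1.37 in the vehicle rats under CO2-O2 and at -0.43, -0.66 and -0.62 in the TBA rats. Under isoflurane it was at -1.10, -1.14 and -0.87 against -0.99, -0.50 and -0.34. The groups were apart under CO2-O2 and overlapped under isoflurane. Its averaged effect of 0.48 ± 0.14 was not called (adjusted p = 0.109), and its second probe gave 0.23. Col5a3, a chain of type V collagen, which starts fibril assembly, had an averaged difference of 0.16 ± 0.06 (adjusted p = 0.175).

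Among collagens of basement membranes, Col4a1, Col4a4 and Col18a1 were measured, and none was called for TBA. Col4a1, a chain of the type IV network found in all basement membranes, was at 4.38, 4.48 and 4.45 in the vehicle rats and 4.49, 4.49 and 4.86 in the TBA rats under CO2-O2. TBA rat 3, which shared the slide of the vehicle rats, was the highest of the 12 rats. Under isoflurane Col4a1 was at 4.39, 4.02 and 4.18 in the vehicle rats and 4.31, 4.55 and 4.47 in the TBA rats, which overlapped. The averaged difference was 0.21 ± 0.09 (adjusted p = 0.229), or 1.01-fold to 1.33-fold as a 95% interval, and its 4 probes ranged from 0.14 to 0.35. Vehicle isoflurane rat 2 was the lowest of the 12 rats. Without it the averaged difference was 0.17 ± 0.09 (adjusted p = 0.373), and the one under isoflurane fell from 0.25 to 0.16 ± 0.13. Col18a1, whose product releases the fragment endostatin, stood at 0.04 ± 0.05 (adjusted p = 0.701) and had the smallest within-group SD of the 30 genes, 0.084.

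Collagens that decorate fibrils or sit in cell membranes had differences of both signs, without a call. Col9a2, a chain of the fibril-associated type IX collagen, had the lowest averaged TBA difference of the 30 genes, -0.48 ± 0.16 (adjusted p = 0.157). It was at -2.42, -2.07 and -2.72 in the vehicle rats and -2.90, -2.51 and -2.89 in the TBA rats with CO2-O2, and at -2.16, -1.54 and -2.38 against -2.44, -2.80 and -2.61 under isoflurane. The isoflurane groups did not overlap, with vehicle rat 2 the highest of all 12 rats for this gene. The difference under isoflurane was -0.59 ± 0.23 (adjusted p = 0.224) with this rat and -0.35 ± 0.20 (adjusted p = 0.482) without it. The partner chain Col9a1 had an averaged difference of -0.06 ± 0.10 (adjusted p = 0.788). Col14a1, a fibril-associated collagen, was at -0.94, -0.84 and -1.20 in the vehicle rats and -1.37, -1.64 and -1.45 in the TBA rats with CO2-O2, and these groups were apart. Under isoflurane its vehicle rats, at -1.84, -2.03 and -1.75, overlapped with its TBA rats, at -2.03, -2.18 and -1.30. The averaged difference of Col14a1 was -0.23 ± 0.14 (adjusted p = 0.422). A second kept probe of Col14a1, well above background on all CO2-O2 arrays, gave -0.008 under CO2-O2, against -0.49 for the probe used.

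Col23a1, a transmembrane collagen, was barely above background and is among the genes that only just passed the rule. Its probe was well above background on 3, 2, 1 and 1 arrays of the vehicle CO2-O2, TBA CO2-O2, vehicle isoflurane and TBA isoflurane groups. The averaged difference was 0.31 ± 0.12 (adjusted p = 0.200). Under isoflurane it was 0.39 ± 0.17 (adjusted p = 0.271), and with normexp background correction, which handles dim spots differently, that value was 0.31 ± 0.07 and passed (adjusted p = 0.0381).

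Laminins are trimers of an alpha, a beta and a gamma chain. The chains of the laminin that lines the mature glomerular filter, Lama5, Lamb2 and Lamc1, had averaged TBA differences of 0.10 ± 0.07 (adjusted p = 0.498), 0.05 ± 0.07 (adjusted p = 0.712) and -0.01 ± 0.07 (adjusted p = 0.943). Their 95% intervals lay between 0.957-fold and 1.20-fold, 0.936-fold and 1.15-fold, and 0.893-fold and 1.10-fold. Lama5 was at 2.07, 2.29 and 1.91 in the vehicle rats and 2.23, 2.28 and 2.35 in the TBA rats with CO2-O2, and at 2.29, 2.33 and 2.11 against 2.16, 2.35 and 2.22 under isoflurane. Both pairs of groups overlapped. Lama1, a chain of tubular basement membranes, was at -0.23 ± 0.20 (adjusted p = 0.553), and its lowest value, -2.10, was that of TBA rat 1 under CO2-O2.

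Lamb3 encodes a chain of the laminin that anchors lining epithelia to the matrix below. It was at -2.32, -1.77 and -2.02 in the vehicle rats and -1.93, -1.61 and -2.13 in the TBA rats under CO2-O2, which overlapped. Under isoflurane the vehicle rats, at -2.75, -3.07 and -2.88, lay below the TBA rats, at -2.23, -2.42 and -2.40. The difference there was 0.55 ± 0.16 (adjusted p = 0.131) and the averaged one 0.35 ± 0.12 (adjusted p = 0.146). Lamc3, another gamma chain, had an averaged difference of -0.21 ± 0.19 (adjusted p = 0.590).

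Matrix glycoproteins and proteoglycans had 6 measured genes, with no call for TBA. Fibronectin (Fn1), a cell-binding glycoprotein deposited early in scarring, was at 1.61, 1.40 and 1.52 in the vehicle rats and 1.13, 1.26 and 1.54 in the TBA rats under CO2-O2. Under isoflurane it was at 1.52, 0.84 and 1.45 against 1.15, 1.34 and 1.25. The groups overlapped in both cases, the averaged difference was -0.11 ± 0.12 (adjusted p = 0.658), and its 3 probes ranged from -0.62 to -0.07. The probe at -0.62 was dim, well above background on 3 arrays of each CO2-O2 group, 2 of vehicle isoflurane and 0 of TBA isoflurane. The other probes, well above background on all arrays, gave -0.11 and -0.07. Without vehicle isoflurane rat 2 the averaged difference of Fn1 was -0.22 ± 0.08 (adjusted p = 0.224).

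Decorin (Dcn), a proteoglycan that binds collagen fibrils, was at 3.60, 3.13 and 3.68 in the vehicle rats and 3.62, 3.29 and 3.22 in the TBA rats under CO2-O2. Under isoflurane it was at 3.17, 2.28 and 3.12 in the vehicle rats and 3.39, 3.23 and 2.84 in the TBA rats, for an averaged difference of 0.10 ± 0.18 (adjusted p = 0.799) that turned to -0.04 ± 0.14 without vehicle isoflurane rat 2. Its relative biglycan (Bgn) was at 0.0058 ± 0.106 (adjusted p = 0.984), with a 95% interval of 0.852-fold to 1.18-fold, and at -0.08 ± 0.08 without that rat. Fbn1, the fibrillin that builds the microfibrils of elastic fibres, stood at -0.08 ± 0.11 (adjusted p = 0.727), and at -0.14 ± 0.11 without it.

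Sparc, a collagen-binding matricellular protein, was at 5.60, 5.63 and 5.72 in the vehicle rats and 5.70, 5.53 and 5.77 in the TBA rats under CO2-O2. Under isoflurane the TBA rats, at 5.64, 5.78 and 5.74, lay above the vehicle rats, at 5.62, 5.32 and 5.45, by 0.26 ± 0.09 (adjusted p = 0.189). The averaged value was 0.14 ± 0.07 (adjusted p = 0.288). Tenascin C (Tnc), a glycoprotein induced in remodelling tissue, was near background, and vehicle rat 1 under CO2-O2, at -6.33 and not well above background, lay far below the other 11 rats, which ranged from -4.70 to -3.63. The averaged difference of Tnc was 0.04 ± 0.42 (adjusted p = 0.974), the least precise of the 30. Periostin (Postn) and Col13a1 were not well above background on any array, and lumican (Lum), on 2 of 3 vehicle CO2-O2 arrays alone, fell just short of the rule.

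Across the 30 genes the 95% intervals of the averaged effect reached from 0.536-fold to 1.96-fold, both ends set by Tnc, so no interval extended to a 2-fold change. These intervals are not adjusted for the number of genes. Whether TBA acted differently under the anesthetics was tested as the difference between both effects: 0 of 30 genes were called, as were 0% of all features, and 2 of 30 had an unadjusted p under 0.05, against 12.1% of all features. These 2, named after their values were seen, were Col2a1 (0.54 ± 0.19, adjusted p = 0.333) and Col7a1 (-0.50 ± 0.21, adjusted p = 0.405).

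**Figure D2:**
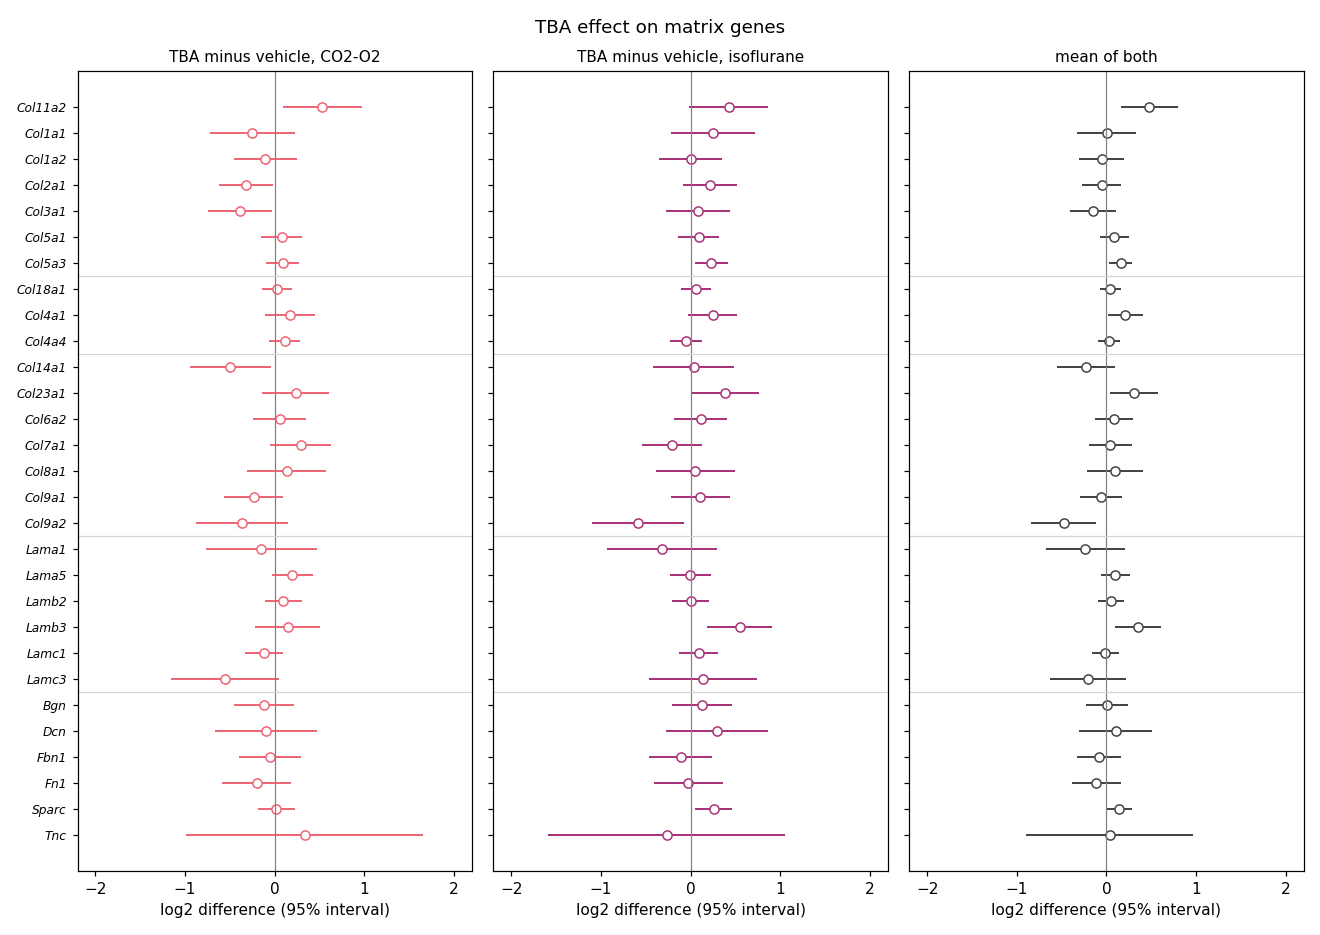
Log2 difference between TBA and vehicle rats for 29 of the 30 matrix genes under CO2-O2 (left), under isoflurane (middle) and averaged (right), with 95% intervals and 3 rats per group; horizontal lines separate fibrillar collagens, basement membrane collagens, other collagens, laminins, and glycoproteins with proteoglycans. All points are open because no gene had an adjusted p under 0.05; the averaged values run from -0.48 for Col9a2 to 0.48 for Col11a2.

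Genes that process, degrade, bind or regulate the matrix were taken from 5 lists. Of 20 genes of collagen crosslinking and folding, 26 matrix proteases and inhibitors, 17 cell receptors of matrix and 34 further matrix glycoproteins and proteoglycans, none was called in any TBA comparison, and the medians of their averaged effects were 0.056, -0.0066, -0.011 and -0.013. Of 23 genes of TGF-beta signalling, the main profibrotic pathway of the kidney, 1 fell in the averaged effect and none rose, beside the 1.88% of all features that were called. This was Pmepa1, a TGF-beta target that dampens the pathway, which changed by -0.31 ± 0.06 (adjusted p = 0.0354), from means of 2.54 to 2.26 under CO2-O2 and of 2.42 to 2.08 under isoflurane. The TGF-beta list had a median of -0.013, with 11 genes higher and 12 lower.

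Cell type markers were set beside these values. The 11 fibroblast and stroma markers had a median of 0.0043 in the averaged TBA effect, 6 higher and 5 lower, with none called. Their mean level ranged from -0.999 to -0.83 in the vehicle and from -1.07 to -0.99 in the TBA rats with CO2-O2, and from -1.14 to -0.79 and -1.16 to -0.89 under isoflurane. In the averaged effect, markers of the proximal tubule were higher in the TBA rats for 8 of 8 genes, with a median of 0.19. Of these markers, 7 were higher and 1 lower under CO2-O2 alone, and 8 were higher under isoflurane, where TBA and slide cannot be told apart. Their mean level ranged from 6.33 to 6.54 in the vehicle and 6.72 to 6.85 in the TBA rats with CO2-O2, and from 6.49 to 6.65 and 6.79 to 6.93 under isoflurane. Of the 8, 2 transporters of the tubule rose, again beside 1.88% of all features, Slc5a12 (0.68 ± 0.08, adjusted p = 0.00986) and Slc22a8 (0.38 ± 0.06, adjusted p = 0.0292). Markers of the thick ascending limb, a later tubule segment, were lower in the TBA rats for 4 of 4 genes, with a median of -0.23. Of these, 1 fell, Cldn10, a claudin of tight junctions (-0.40 ± 0.08, adjusted p = 0.0417). Their mean level ranged from 2.95 to 3.19 in the vehicle and 2.67 to 2.84 in the TBA rats with CO2-O2, and from 2.66 to 3.04 and 2.57 to 2.87 under isoflurane. The part of a shift in tubular RNA in the matrix values was not tested.

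**Figure D3:**
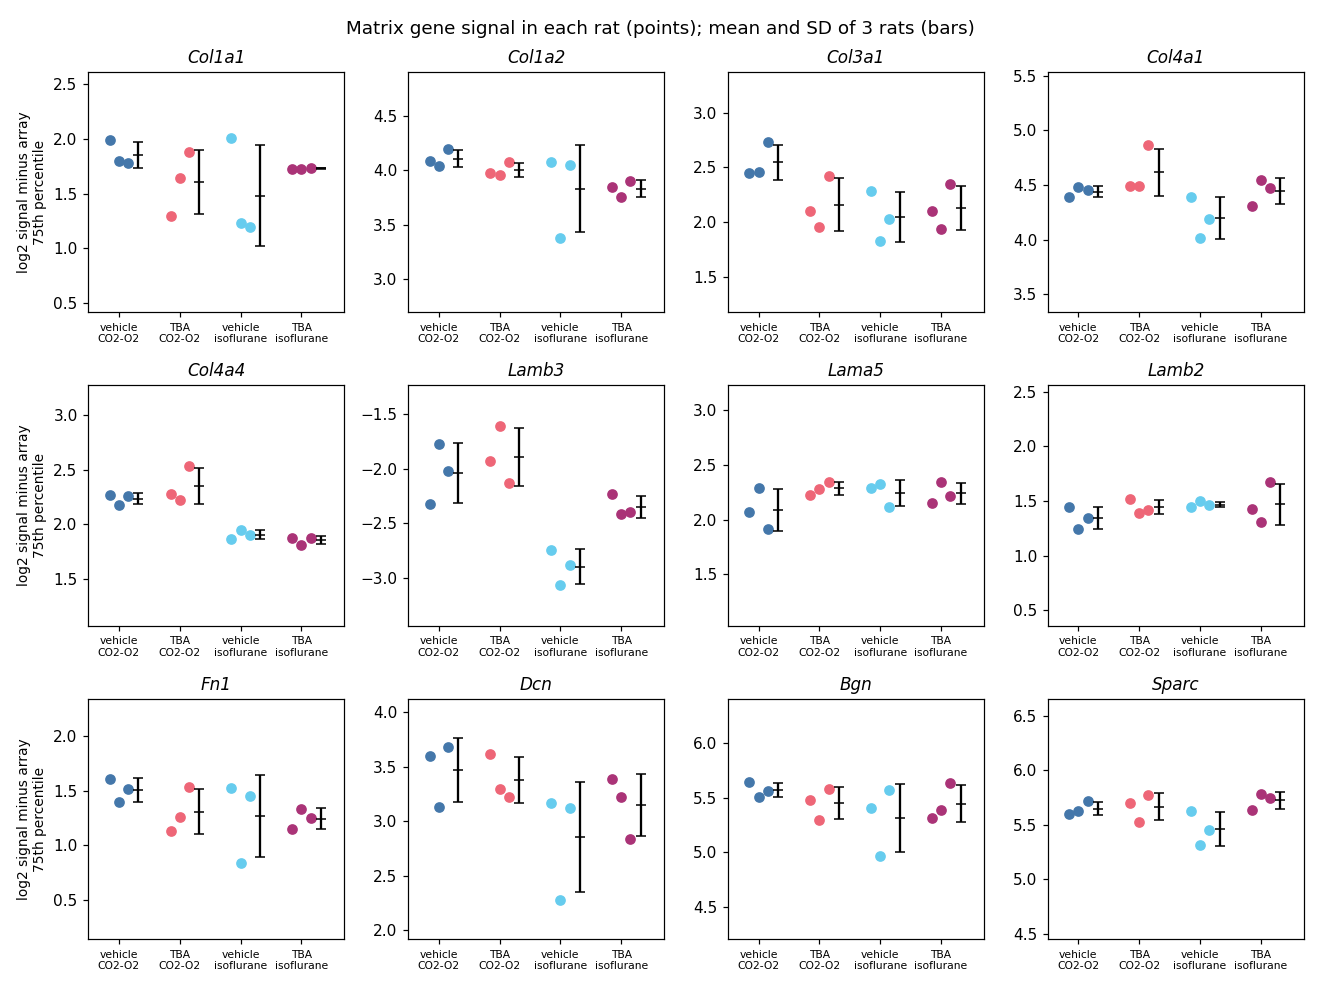
Signal of 12 matrix genes in each rat, as log2 minus the 75th percentile of the array, with the mean and SD of the 3 rats of each group as a bar; every panel spans the same number of log2 units. Vehicle and TBA groups overlap under both anesthetics in the panels of Col1a1, Col1a2, Lama5, Lamb2, Fn1, Dcn and Bgn, whereas all 6 isoflurane rats lie below all 6 CO2-O2 rats for Col4a4.

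The anesthetics were compared next, in vehicle rats and in TBA rats. None of the 30 genes was called in vehicle rats (0.105% of all features were) or in TBA rats (0.00676%). At an unadjusted p under 0.05 there were 6 of 30 genes in vehicle rats and 5 of 30 in TBA rats, or 20.0% and 16.7% beside 18.7% and 10.8% of all features. Those lower under isoflurane were 6 in vehicle rats (8.81% of all features) and 4 in TBA rats (5.31%). Groups did not overlap for 8 genes in vehicle rats (29.1% of all features) and for 5 in TBA rats (15.1%). The median over the 30 genes was -0.12 in vehicle rats and -0.0195 in TBA rats, against 0.0070 and 0.0087 over all features. Without vehicle isoflurane rat 2 the vehicle median was -0.033.

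The mean of both anesthetic differences, a comparison added after the data were seen, called 1 of 30 genes, Col4a4, beside 0.287% of all features. At an unadjusted p under 0.05 it held 8 genes (17.2% of all features), all 8 lower under isoflurane (7.64%). The median over the 30 genes was -0.086, against 0.0053 over all features. It shrank with scan day as a term, as given at the end. Without vehicle isoflurane rat 2, 20 of the 30 genes lay closer to 0, and all 8 were still lower. Of these, Col3a1 moved from -0.27 to -0.21 ± 0.12 and Col4a1 from -0.21 to -0.16 ± 0.09. Col7a1 moved from -0.24 to -0.21 ± 0.11 and Dcn from -0.42 to -0.27 ± 0.14. Col4a4 encodes a chain of the type IV collagen network of the glomerular basement membrane, which podocytes lay down and which is defective in Alport syndrome. Its signal was 2.27, 2.18 and 2.26 in the vehicle rats and 2.28, 2.22 and 2.54 in the TBA rats under CO2-O2. Under isoflurane it was 1.87, 1.95 and 1.90 in the vehicle rats and 1.87, 1.81 and 1.88 in the TBA rats. Every isoflurane rat lay below every CO2-O2 rat, and the within-group SD of 0.090 was the second smallest of the 30 genes.

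Isoflurane minus CO2-O2 was -0.33 ± 0.08 for Col4a4 in vehicle rats (adjusted p = 0.0998), -0.49 ± 0.08 in TBA rats (adjusted p = 0.125) and -0.41 ± 0.06 averaged (adjusted p = 0.0246). The averaged level under isoflurane was 0.752-fold that under CO2-O2, with a 95% interval of 0.689-fold to 0.820-fold. Its 2 probes gave -0.33 and -0.32 in vehicle rats and -0.49 and -0.35 in TBA rats. For TBA, by contrast, the averaged Col4a4 difference was 0.03 ± 0.06 (adjusted p = 0.812).

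Slide and scan day move with this comparison. In vehicle rats all CO2-O2 arrays were on slide 1 and all isoflurane arrays on slide 2. A term for scan day there rests on TBA CO2-O2 rat 3, the highest rat for Col4a4 and the 1 rat of its group scanned on day 1. With that term the vehicle difference was -0.05 ± 0.10 (adjusted p = 0.899), the TBA difference -0.40 ± 0.06 (adjusted p = 0.130) and the averaged one -0.22 ± 0.07 (adjusted p = 0.301). Within scan day 2, the TBA rats under isoflurane (slide 3) were at a mean of 1.85. TBA rats 1 and 2 under CO2-O2 (slide 2) were at 2.25, for an isoflurane minus CO2-O2 difference of -0.40. Within slide 2, the vehicle isoflurane rats were 0.35 below the same TBA rats (difference -0.35), which differ from them in treatment too. In the vehicle rats, anesthetic and slide cannot otherwise be told apart. No slide held TBA rats of both anesthetics, so anesthetic and slide cannot be told apart in TBA rats either.

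Of the 12 fits that each left out 1 rat, 3 kept the call of Col4a4, those without vehicle CO2-O2 rat 2, TBA CO2-O2 rat 2 or TBA CO2-O2 rat 3. The other 9 gave an adjusted p from 0.0547 to 0.0861, and the difference ranged from -0.44 to -0.36 over all 12. Without vehicle isoflurane rat 2 it was -0.42.

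Podocyte markers, 8 of 8 well above background on all arrays, had a median of -0.038 in the averaged anesthetic difference, 3 higher and 5 lower, with none called. Their mean level ranged from 1.13 to 1.35 and 1.27 to 1.50 in the vehicle and TBA rats under CO2-O2 and from 1.21 to 1.28 and 1.19 to 1.41 under isoflurane, which overlap. Lama5 and Lamb2, laminin chains of the same membrane, were at 0.06 ± 0.07 (adjusted p = 0.719) and 0.07 ± 0.07 (adjusted p = 0.593), and Col4a1 at -0.21 ± 0.09 (adjusted p = 0.268). The 4 probes of Col4a1 did not share a sign here, with values from -0.29 to 0.18 in vehicle rats and from -0.19 to 0.28 in TBA rats.

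Lamb3 had the lowest averaged anesthetic difference of the 30 genes, -0.66 ± 0.12, just short of a call (adjusted p = 0.0525). All 6 isoflurane rats were again apart from the CO2-O2 rats within each treatment, by -0.86 ± 0.16 in vehicle rats (adjusted p = 0.0716) and -0.46 ± 0.16 in TBA rats (adjusted p = 0.358). Both of its probes were lower under isoflurane, by values from -0.86 to -0.66 in vehicle rats and of -0.46 in TBA rats. Within scan day 2 the difference in TBA rats was -0.58, which sets slide 3 against slide 2. With scan day as a term the averaged difference was -0.90 ± 0.19 (adjusted p = 0.172). Lamb3 passed in the averaged comparison with normexp background correction (adjusted p = 0.0342), with quantile normalization (adjusted p = 0.0437) and with only probes well above background on all 12 arrays (adjusted p = 0.0397). It did not pass with the mean of its probes (adjusted p = 0.102), without a filter on dim probes (0.123) or with slide as a random block (0.0819). Nor did it pass with a replicate block (0.0833), with the submitters' table (0.0524) or with any 1 rat left out (0.0526 to 0.132).

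The 250 bases before the RefSeq start of Col4a4 and Lamb3, the genes with the clearest anesthetic difference, are shown 5′ to 3′ on the gene's strand, from the GRCr8 assembly, with capitals for any motif found on either strand. The letters searched were TATAAA for the TATA box, GGGCGG for the GC box and those of its name for the CCAAT box, together with their reverse complements. In the RefSeq gene table Col4a3, the partner chain of Col4a4, is the neighbouring gene; the pair is known to be transcribed in opposite directions from a shared promoter region, and no probe was matched to Col4a3. These windows bear on no measurement of binding or methylation here.
Col4a4, chr9:91323578-91323827, minus strand: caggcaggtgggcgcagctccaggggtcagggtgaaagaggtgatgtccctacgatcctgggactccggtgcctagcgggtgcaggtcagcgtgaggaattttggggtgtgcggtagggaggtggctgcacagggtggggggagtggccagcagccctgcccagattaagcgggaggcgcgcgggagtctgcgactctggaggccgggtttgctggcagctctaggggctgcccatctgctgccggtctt
Lamb3, chr13:107362303-107362552, plus strand: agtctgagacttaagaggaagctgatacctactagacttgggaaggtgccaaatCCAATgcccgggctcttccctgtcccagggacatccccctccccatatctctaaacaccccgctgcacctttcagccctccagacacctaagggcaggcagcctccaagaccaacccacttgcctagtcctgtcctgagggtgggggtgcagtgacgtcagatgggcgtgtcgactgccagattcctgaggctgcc
The Col4a4 window holds none of these motifs and is 66.4% G and C. The Lamb3 window holds 1 CCAAT box, starting 196 bases before the gene, and is 58.4% G and C. Promoters were found for 20 of the 30 genes, of which 2 held a TATA box, 4 a CCAAT box and 12 a GC box, against 12.93%, 34.02% and 30.47% of all 33469 promoters in the table at the same window length. Such matches describe letters and not bound factors.

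Other matrix genes were lower under isoflurane in vehicle rats, without a call. Col14a1 had the lowest difference of the 30 genes in vehicle rats, -0.88 ± 0.20 (adjusted p = 0.0923), and was at -0.35 ± 0.20 in TBA rats and -0.62 ± 0.14 averaged (adjusted p = 0.0956). Without TBA isoflurane rat 3 its averaged value was -0.75 and passed (adjusted p = 0.0353), the only fit in which Col14a1 did. With any other rat left out the adjusted p was 0.0961 to 0.203. With scan day as a term the averaged value was -0.58 ± 0.26 (adjusted p = 0.495). Nor did it pass with the mean of its probes (0.135), without a filter on dim probes (0.191) or with slide as a random block (0.147). Dcn was at -0.61 ± 0.26 (adjusted p = 0.239) in vehicle rats, where rat 2 of the isoflurane group was the lowest of all 12, and at -0.32 ± 0.21 (adjusted p = 0.514) without that rat. Col3a1 was at -0.50 ± 0.16 (adjusted p = 0.158) in vehicle rats but at -0.03 ± 0.16 in TBA rats. Fbn1 was at -0.32 ± 0.16 and -0.38 ± 0.16 (adjusted p = 0.306 and 0.422), whereas its second probe, well above background on all arrays, gave -0.03 and 0.06. Without vehicle isoflurane rat 2 the vehicle value of Fbn1 was -0.19 ± 0.16.

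Type I collagen and fibronectin were not called between the anesthetics. In vehicle rats Col1a1 was at -0.37 ± 0.21 (adjusted p = 0.369), Col1a2 at -0.27 ± 0.16 (adjusted p = 0.381) and Fn1 at -0.24 ± 0.17 (adjusted p = 0.484). In TBA rats the same genes were at 0.12 ± 0.21, -0.17 ± 0.16 and -0.07 ± 0.17, with adjusted p = 0.874, 0.732 and 0.924. The vehicle values of Col1a2 and Fn1 rested on isoflurane rat 2: without it they were -0.05 ± 0.08 (adjusted p = 0.817) and -0.02 ± 0.12 (adjusted p = 0.962), and Col1a1 was at -0.25 ± 0.23. Averaged over both treatments, Bgn stood at -0.13 ± 0.11, Sparc at -0.06 ± 0.07 and Tnc at 0.38 ± 0.42, and without that rat Bgn was at -0.04 ± 0.08 and Sparc at -0.03 ± 0.06.

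Higher values under isoflurane were seen in Lama1, at 0.51 ± 0.28 in vehicle rats, where the groups did not overlap (-1.15, -1.92 and -1.14 against -0.75, -0.87 and -1.06), and at 0.43 ± 0.20 averaged (adjusted p = 0.299). Col9a2 stood at 0.26 ± 0.16 (adjusted p = 0.438), or 0.14 ± 0.14 without vehicle isoflurane rat 2, and Col9a1 at 0.19 ± 0.10 (adjusted p = 0.386). The 2 probes of Col9a2 did not share a sign in vehicle rats, at 0.38 and -0.12, and gave 0.15 and 0.20 in TBA rats. Within the 5 lists of matrix processing, receptors, further glycoproteins and TGF-beta signalling, no gene was called in the averaged anesthetic difference or within either treatment. Their medians in the averaged difference were 0.025 for crosslinking and folding, -0.052 for proteases and inhibitors, -0.0055 for receptors, -0.097 for further glycoproteins and proteoglycans, and 0.029 for TGF-beta signalling.

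**Figure D4:**
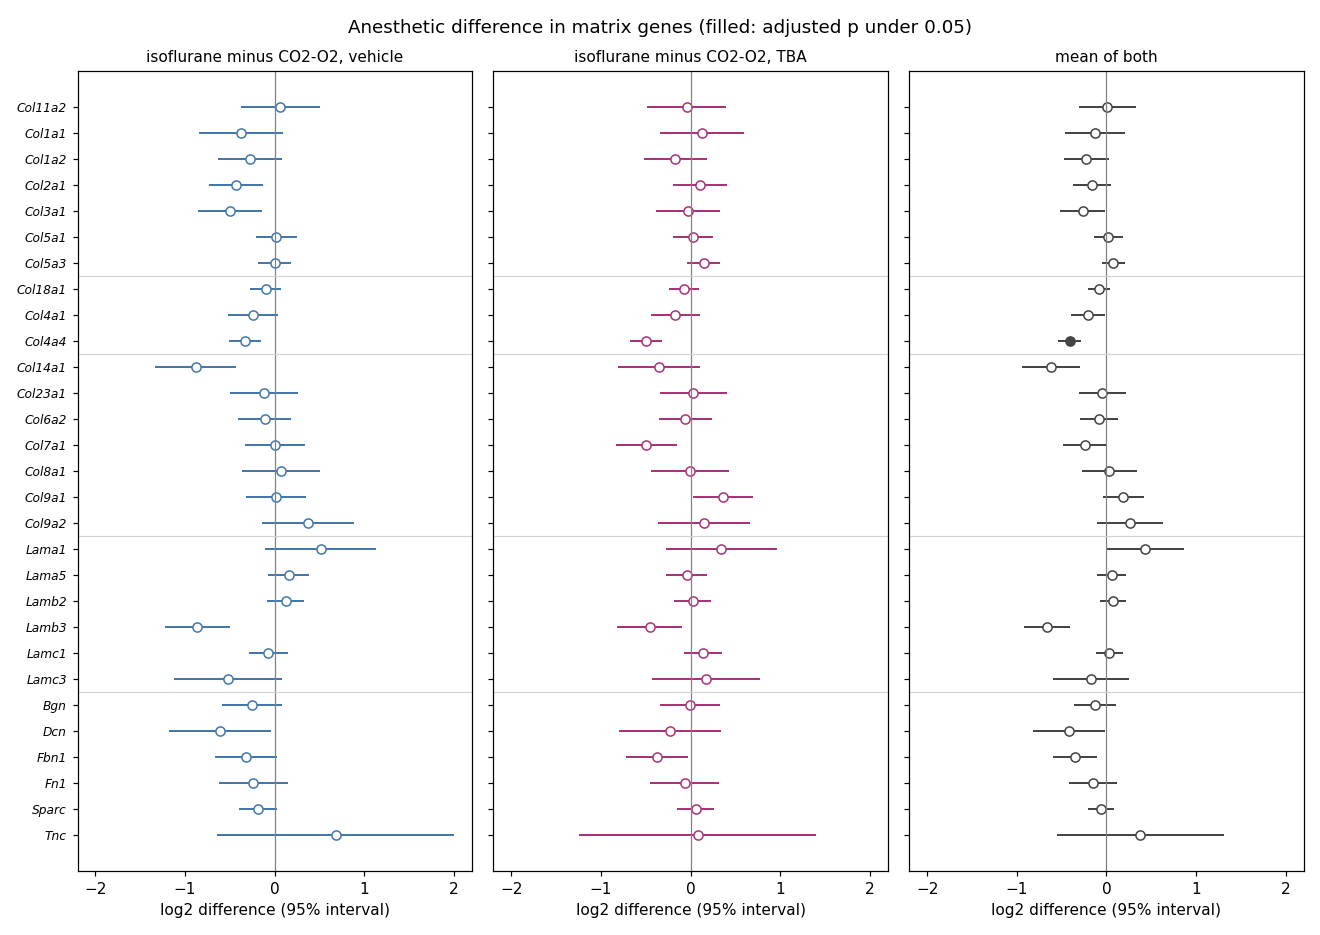
Log2 difference between isoflurane and CO2-O2 for 29 of the 30 matrix genes in vehicle rats (left), in TBA rats (middle) and averaged (right), with 95% intervals and 3 rats per group, in the same gene order and classes as the plot of TBA effects. The 1 filled point is Col4a4 at -0.41 in the averaged panel, the gene with an adjusted p under 0.05; Lamb3 lies lower, at -0.66, with a wider interval.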

How the data were processed

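Signals were taken from the scanner output deposited for each array, in which spot intensity had been extracted with Agilent Feature Extraction version 10.7 (10.7.1.1 in the headers). The deposited intensity had its background subtracted and was not scaled between arrays, per the file headers. The submitters' table, used as an alternative, gives the deposited intensity as a linear ratio to the array's 75th percentile; this scale was inferred here by setting it against the scanner output. Its column medians are 0.101 to 0.107, and no centring was found. Each column matched the scanner output of another replicate of its group (r of at least 0.9999), so the scanner numbering is used.

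Names came from RefSeq accessions of GRCr8, compared with versions removed: 27460 of 61657 probes had 1 symbol, 0 several and 34197 none. Control spots and flagged outlier spots were dropped. For each symbol the brightest of its kept probes was used; 21 of the 30 genes had several. Group means were fitted by limma 3.58.1 (R 4.3.3, lmFit then eBayes) to 12 arrays and 29603 features without covariates; the residual degrees of freedom were 8 and the prior ones 1.89. The fit was also run on simulated arrays with known changes and independent noise. These held no slide or scan day effect, so they bear on the code and not on the layout of the slides. P-values were adjusted over all features. Precision is limited by the number of arrays.

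The genes and lists were chosen with earlier results of these data known. Genes are named where called in any comparison, among the 5 highest or 5 lowest in the averaged TBA effect or the averaged anesthetic difference, or from a preset group (Col1a1, Col1a2, Col3a1, Col4a1 to Col4a5, Col6a1, Col18a1, Lama5, Lamb1, Lamb2, Lamc1 and the 11 genes listed by name); Col2a1 and Col7a1 were named after their values were seen. The values of 1 of the 30 genes are not reported here singly; it stays in the counts and medians. Alternatives were normexp (offset 50), quantile normalization, the submitters' table, dropping or tightening the dim-probe filter, averaging a gene's probes, slide or scan day as terms, slide 1 alone, a replicate block, only the arrays compared, and each array left out.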

Additional observations from a re-analysis of the deposited data

How the results depend on the processing

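The counts of called genes stayed at 0 for TBA under CO2-O2, for the averaged TBA effect, for the difference between TBA effects and for the anesthetics in TBA rats under every alternative that could be fitted. Slide as a fixed term could not be fitted for TBA under isoflurane, for the anesthetics in TBA rats or for the averages. Slide 1 alone rests on 1 TBA array. With normexp the count was 1 for TBA under isoflurane (Col23a1) and 1 for the anesthetics in vehicle rats (Lamb3, -0.67, adjusted p = 0.0308). In the averaged anesthetic difference it was 2 with normexp, with quantile normalization and with probes well above background on all 12 arrays, and 0 without a filter on dim probes and with scan day as a term. Leaving out 1 rat gave 0 to 1. Col4a4 was at -0.41 without a filter on dim probes (adjusted p = 0.0858) and at -0.22 with scan day as a term (adjusted p = 0.301), and ranged from -0.44 to -0.36 with 1 rat left out. The cause was not tested. With 1 rat left out the median over the genes ranged from 0.012 to 0.18 for TBA under isoflurane, the highest without vehicle isoflurane rat 1, and from -0.21 to -0.033 for the anesthetics in vehicle rats, the lowest without vehicle CO2-O2 rat 3. The median of the averaged anesthetic difference was -0.086 in the main fit and -0.0029 with scan day as a term. For the averaged TBA effect, 627 values of the 30 genes over 21 alternatives held 0 past the threshold and 44 of opposite sign, from 13 genes whose difference was at most 0.11 in size. Replicate numbers did not pair the rats: same-numbered rats of different groups deviated together with r from -0.13 to 0.13, over 0.1 in 3 of 18 pairs. With the replicate block Col4a4 was at -0.41 (adjusted p = 0.0454) and no count of called genes changed. Dim signal limits Col23a1 and Tnc, each not well above background on some arrays.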
